A study of Mus musculus with 24 samples.

Results

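The comparison of CITCO with corn oil in wild-type mice rests on 4 of the 24 liver arrays of the series: 2 mice given CITCO and 2 given the corn oil vehicle, chosen by their labels alone and with 1 Affymetrix array per mouse. All mice were of mixed C57BL/6x129Sv background, were labelled female and ate normal chow, and their ages were not used here. Wild-type mice kept their own constitutive androstane receptor (CAR, gene Nr1i3) and had no human one. CITCO was injected into the abdomen at 30 mg/kg on each of 3 days, 24 h apart, and livers were taken 6 h after the last injection. For reference, the same 2 treatments in mice without mouse CAR (CAR.KO, called knockout here) and in such mice given human CAR under the albumin promoter, which is active in hepatocytes (CAR.AH, called human CAR mice here) were used, again with 2 mice a group. So were wild-type mice given phenobarbital at 100 mg/kg per day, spelled phenobarbitol in the labels, or TCPOBOP at 3 mg/kg in 1 injection followed by corn oil. The labels describe CITCO as specific for human CAR and TCPOBOP as a potent ligand of mouse CAR, so the comparison asks what a ligand of the human receptor does where only the mouse receptor is present.

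CAR is a nuclear receptor of hepatocytes that waits in the cytoplasm and enters the nucleus when a ligand binds it or when phenobarbital-type signalling releases it. There it pairs with the retinoid X receptor on repeats of the half-site AGGTCA and switches on genes that make drugs and steroids easier to excrete. Cyp2b10 and Cyp2c29, which encode drug-oxidising cytochrome P450 enzymes, are its standard readouts in mouse liver.

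CITCO raised Cyp2b10 in wild-type livers. The 2 corn oil mice had Cyp2b10 levels of 4.66 and 5.22 on the log2 scale of the deposited values, and the 2 CITCO mice had 7.36 and 8.98. Cyp2c29 was higher in both CITCO mice as well, but without passing the test. Gstp3, a pi-class glutathione S-transferase, was far lower in both CITCO mice, and Plekhb2, an endosomal lipid-binding protein, was slightly lower. These 3 of 9164 genes tested, 0.0327%, were called, that is, had a Benjamini-Hochberg adjusted p under 0.05 in limma, a moderated linear model that took the spread from all 12 groups of the series. Without adjustment, 310 genes (3.38%) had a p under 0.05 and a higher mean on CITCO, and 357 (3.9%) a lower one. Differences are CITCO minus corn oil in log2 units, each with its standard error (SE).

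The region around the start of transcription is shown for 4 of the genes: the 2 CAR readouts, Cyp2c55, whose response was split between the CITCO mice, and Gstp3, which was far lower on CITCO. The sequences are RefSeq's, build GRCm38.p6, from 250 bases before the start to 50 after it, 5′ to 3′ on the gene's strand. They lie at chr7:25897408-25897707 (plus strand) for Cyp2b10, chr19:39286835-39287134 (plus) for Cyp2c29, chr19:39006769-39007068 (plus) for Cyp2c55 and chr19:4059398-4059697 (minus) for Gstp3. Capitals mark matches on either strand to the half-site AGGTCA or to the TATA motif TATAAA; no match of one overlaps the other.
Cyp2b10: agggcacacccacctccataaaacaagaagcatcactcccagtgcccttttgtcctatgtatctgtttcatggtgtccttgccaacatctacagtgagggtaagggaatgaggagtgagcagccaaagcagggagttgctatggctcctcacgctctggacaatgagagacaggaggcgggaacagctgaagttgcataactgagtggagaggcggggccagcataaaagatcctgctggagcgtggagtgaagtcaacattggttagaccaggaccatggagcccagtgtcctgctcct
Cyp2c29: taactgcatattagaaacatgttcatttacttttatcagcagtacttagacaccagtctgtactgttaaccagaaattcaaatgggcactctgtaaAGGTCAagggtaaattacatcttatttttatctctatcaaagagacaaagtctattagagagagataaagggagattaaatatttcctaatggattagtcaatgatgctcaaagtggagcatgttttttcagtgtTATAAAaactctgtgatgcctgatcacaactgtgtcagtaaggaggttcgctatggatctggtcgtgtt
Cyp2c55: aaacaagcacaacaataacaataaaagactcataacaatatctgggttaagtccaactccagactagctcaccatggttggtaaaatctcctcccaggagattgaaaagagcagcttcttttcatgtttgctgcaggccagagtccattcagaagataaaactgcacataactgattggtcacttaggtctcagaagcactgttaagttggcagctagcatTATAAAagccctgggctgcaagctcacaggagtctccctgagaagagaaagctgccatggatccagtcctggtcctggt
Gstp3: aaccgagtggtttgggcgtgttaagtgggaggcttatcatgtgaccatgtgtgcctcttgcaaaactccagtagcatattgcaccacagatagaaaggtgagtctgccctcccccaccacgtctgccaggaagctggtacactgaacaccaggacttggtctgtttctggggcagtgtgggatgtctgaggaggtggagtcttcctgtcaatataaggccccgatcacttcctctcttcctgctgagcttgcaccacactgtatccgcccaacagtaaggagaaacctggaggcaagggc

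Cyp2c29 held 1 half-site, starting at position -154 from the start of transcription, and a TATA motif at -19, and Cyp2c55 held a TATA motif at -29. Neither motif was found in the Cyp2b10 and Gstp3 windows, which says only that these letters are absent there; the phenobarbital-responsive enhancer of Cyp2b genes is known to lie farther upstream. Among all 32851 windows of this length, 5340 (16.3%) held AGGTCA and 13.6% held TATAAA. Among the 26 windows of 23 genes from the list of drug-metabolising P450s and their partners, 11 (42.3%) held AGGTCA and 53.8% held TATAAA. A match describes the letters and is not a site of binding.

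The labels were checked against the data first. Nr1i3 ran from 7.37 to 8.0 on the 4 arrays, against 5.03 to 5.6 on all 16 arrays of knockout and human CAR mice, and the human transgene was not analysed here. The hepatocyte genes Alb (13.24 to 13.31), Apoa1 (13.08 to 13.29) and Ttr (12.92 to 13.03) were near the top of the scale. The labelled sex was not settled: Xist lay between 4.72 and 5.51 and 6 Y-linked probe sets between 2.63 and 5.3 over the 24 arrays, all near or under the limit for dim probe sets (4.93 to 5.08). Male-biased Cyp7b1 (10.32 to 11.32) and Slco1a1 (9.37 to 10.12) were bright on the 4 arrays, while female-biased Cyp2b9 (4.25 to 4.53) and Cyp3a44 (4.38 to 4.74) were under that limit but others of that list, such as Hamp2 (8.09 to 8.88) and Fmo2 (6.69 to 6.89), were above it; these 6 genes were picked out after their values were seen. The 4 arrays correlated with each other at 0.984 to 0.990 and none was a copy of another. The signal at the 3′ end of control transcripts minus that at the 5′ end, a sign of RNA quality, was 0.368 and 0.477 in the corn oil mice and 0.484 and 0.537 in the CITCO mice, within the 0.36 to 0.605 of all arrays but higher in both CITCO mice; its part in the results was not tested.

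Cyp2b10 encodes the main phenobarbital-inducible P450 of mouse liver. Its mean was 4.94 ± 0.40 (SD, n = 2) on corn oil and 8.17 ± 1.14 (SD, n = 2) on CITCO, a difference of 3.23 (SE 0.38, adjusted p = 0.00226), or 9.37-fold. The groups did not overlap, but the CITCO mice differed 3.07-fold from each other. One of the 2 corn oil arrays was under the dim limit, so the fold rests on a vehicle level close to the floor of the array. A second probe set of Cyp2b10 read 4.55 and 4.71 on corn oil against 7.23 and 8.65 on CITCO, and another 5.35 and 5.80 against 6.93 and 7.95. Cyp2b9, a related gene that such probe sets may also bind, read 4.33 and 4.25 against 4.42 and 4.53. Without corn oil replicate 1 the Cyp2b10 difference was 2.95 and no longer passed (adjusted p = 0.131), and fitted on the 4 arrays alone, with far fewer degrees of freedom, it had an adjusted p of 0.258.

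Cyp2c29 stood at 10.97 and 11.02 in the corn oil mice and at 12.11 and 11.87 in the CITCO mice. Both CITCO mice were above both vehicle mice, by 1.00 on average (SE 0.19), but the adjusted p was 0.129. Cyp2c55, a P450 that oxidises arachidonic acid, was 6.36 and 6.54 on corn oil and 6.66 and 8.90 on CITCO. Only CITCO mouse 2 was clearly above the vehicle, 4.72-fold above CITCO mouse 1, and the difference of 1.33 (SE 0.44) had an adjusted p of 0.572. Without CITCO replicate 1 the difference of Cyp2c55 was 2.45 and passed (adjusted p = 0.000235). Mouse 2 was also the higher CITCO mouse for Cyp2b10, whereas Cyp2c29 was higher in mouse 1.

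**Figure D1:**
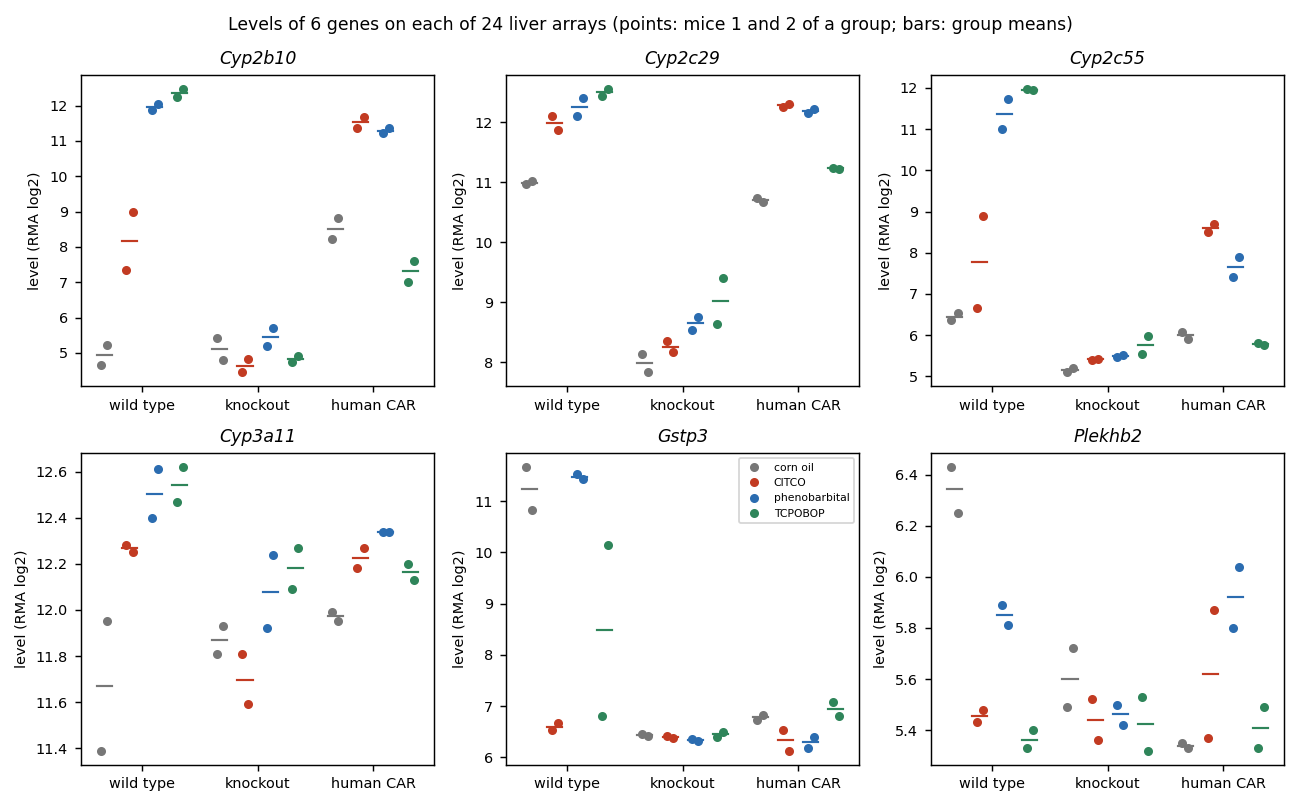
Log2 levels (vertical axes) of 6 genes on each of the 24 arrays, by genotype (horizontal axes) and treatment (colours); points are mice and bars are group means. In wild type, CITCO points of Cyp2b10 (7.36 and 8.98) lie between corn oil and the 2 other ligands, and Gstp3 on CITCO (6.54 and 6.66) lies with the knockout and human CAR mice.

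Drug-metabolising P450s and their partners, the enzymes that add oxygen to drugs, formed a list of 26 tested genes. Of these, 1 was called (Cyp2b10), 7 had an unadjusted p under 0.05 with a higher mean and 0 with a lower one. The CITCO mean was above the corn oil mean for 23 of 26, against 48.8% of all genes tested, and the list's median difference was 0.26 against -0.0056 for all genes. Both CITCO mice exceeded both corn oil mice for 12 of the 26, against 21.4% of all genes, and lay below both for 1, Alas1, which starts heme synthesis and is named after its values were seen. The list was chosen with results of these data known, so its counts are a description.

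Of the list's 4 members of the Cyp3a subfamily, which handle steroids and many drugs, Cyp3a11, Cyp3a25 and Cyp3a44 had higher values on CITCO. Cyp3a44 (4.38 and 4.48 on corn oil against 4.68 and 4.74) was under the dim limit on all 4 arrays. The other member was Cyp3a13 (9.20 and 9.35 against 9.35 and 9.29). Cyp3a11 read 11.39 and 11.95 on corn oil and 12.28 and 12.25 on CITCO, a difference of 0.60 (SE 0.15, adjusted p = 0.401). Cyp3a25 read 10.14 and 10.58 against 11.04 and 11.19. The groups did not overlap for Cyp3a11, Cyp3a25 and Cyp3a44, yet none of them was called. Cyb5a, the cytochrome b5 that passes electrons to P450s, read 10.82 and 10.80 against 11.08 and 11.21. Cyp1a2, which oxidises caffeine, differed by 0.26 (SE 0.21, adjusted p = 0.824).

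For 4 other Cyp2c genes, picked out after their values were seen, the CITCO mice disagreed. They also did for Cyp2c70, at 11.74 and 10.99 against 11.49 and 11.44 on corn oil. For Cyp2c38 they read alike, 7.46 and 7.39 against 6.76 and 7.44 on corn oil. Cyp2c37 was 8.36 and 8.31 on corn oil but 5.25 and 9.03 on CITCO, and Cyp2c39 was 6.02 and 6.07 on corn oil but 8.42 and 6.04 on CITCO. CITCO mouse 1 thus stood below the vehicle for Cyp2c37 and above it for Cyp2c39, while mouse 2 did neither. Over the 24 arrays Cyp2c37 was at or under 6.72 on 13 arrays and at or above 8.26 on 11, with none between; parental alleles at this gene were not analysed here. Cyp2c54 (10.68 and 10.36 against 10.67 and 11.35) and Cyp2c50 (10.94 and 10.67 against 10.78 and 11.65) were high in CITCO mouse 2 only.

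**Figure D2:**
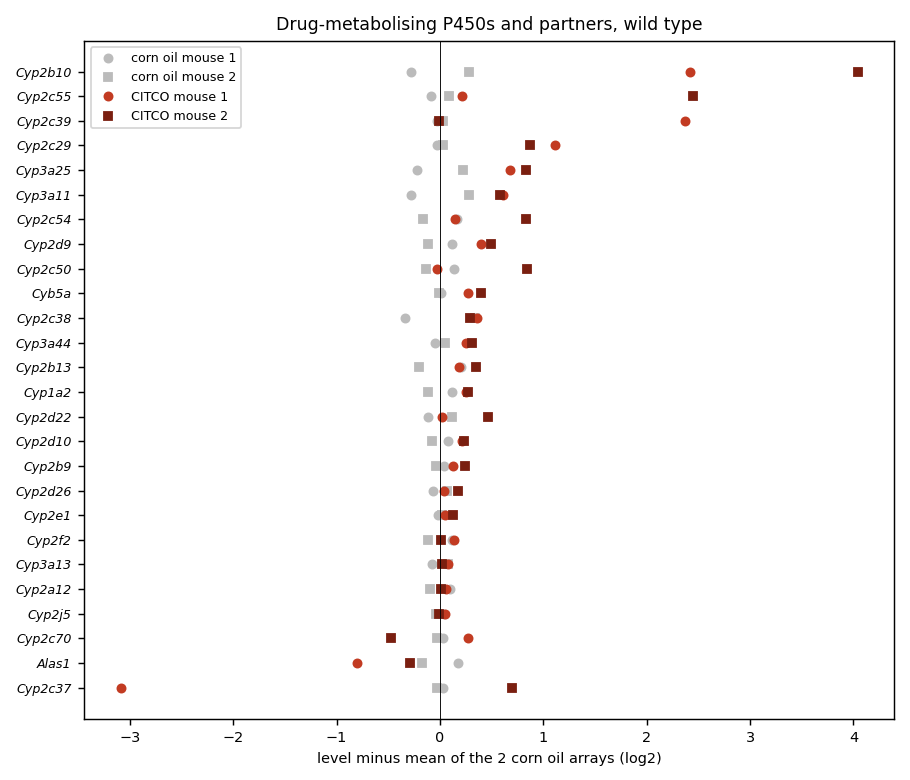
Levels of the 26 tested P450s and partners in each of the 4 wild-type mice, minus the mean of the 2 corn oil mice (horizontal axis, log2), ordered by their mean difference. Cyp2b10 is the farthest to the right in mouse 2; mouse 1 is far out for Cyp2c39 and Cyp2c37.

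Gstp3 gave the largest difference of all genes tested. It belongs to the pi class of glutathione S-transferases, which couple glutathione to reactive compounds. The corn oil mice had 11.67 and 10.83 and the CITCO mice 6.54 and 6.66, a difference of -4.65 (SE 0.61, adjusted p = 0.00448), or 25.1-fold lower on CITCO. The 2 groups were far apart, and the CITCO mice were nearly equal. In wild-type mice Gstp3 was 11.53 and 11.44 on phenobarbital but 6.81 and 10.14 on TCPOBOP, so the 2 TCPOBOP mice fell on opposite sides. All 16 knockout and human CAR mice lay between 6.13 and 7.07 whatever their treatment. Across the series 19 arrays were at or under 7.07 and 5, all wild type, were at or above 10.14, with none between. The mice were of mixed C57BL/6x129Sv background, and which parental allele each carried at Gstp3 was not analysed here, so its part in this difference was not tested. Gstp1, another member of the class, read 12.38 and 12.41 on corn oil and 12.84 and 12.74 on CITCO (difference 0.40, adjusted p = 0.678). Leaving out single arrays gave differences of -5.07 to -4.23 for Gstp3, past the threshold only without corn oil replicate 2 (adjusted p = 0.0204; 0.0589 to 0.222 without each other array).

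Plekhb2 was 6.43 and 6.25 on corn oil and 5.43 and 5.48 on CITCO, a difference of -0.89 (SE 0.14, adjusted p = 0.0385), or 1.85-fold lower. On the 20 other arrays of the series it ran from 5.32 to 6.04, below both wild-type corn oil mice by at least 0.21. Both CITCO mice lay within that range. Whether the vehicle level or the CITCO level made the difference was not tested. TCPOBOP mice of the same genotype had 5.33 and 5.40 and phenobarbital mice 5.89 and 5.81. It was not called without any one of the 4 arrays (adjusted p = 0.111 to 0.498). Without corn oil replicate 1 none of the 9164 genes was called, and without CITCO replicate 2 only Cyp2b10 was.

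From the 12 genes with the smallest unadjusted p in each direction, 5 that did not pass are given as values. They are a choice from those genes and not the first by rank. Acsf3, the mitochondrial malonyl-CoA synthetase, was 6.94 and 6.84 on corn oil and 6.46 and 6.44 on CITCO (adjusted p = 0.146). Guk1, guanylate kinase, was 7.43 and 7.45 against 6.74 and 6.73. Get3, an ATPase that inserts tail-anchored proteins into membranes, was 7.85 and 7.91 against 7.45 and 7.31. On the higher side Mt3, a metallothionein, was 4.56 and 4.72 against 5.03 and 5.08, and Rras2, a small GTPase, was 5.97 and 6.08 against 6.54 and 6.50. A second Rras2 probe set read 5.73 and 5.90 against 5.75 and 5.79, and the mean of probe sets gave a difference of 0.226 (adjusted p = 0.799) in place of 0.50. With the probe sets used, the groups did not overlap in these 5 genes. They were taken from the smallest p of this same comparison, so the lack of overlap adds no support. Over all genes tested both CITCO mice were above both corn oil mice for 21.4% and below both for 24.2%. Several of the higher ones (Mt3, Zfp638, Larp7, Prim2) had both corn oil arrays under the dim limit.

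**Figure D3:**
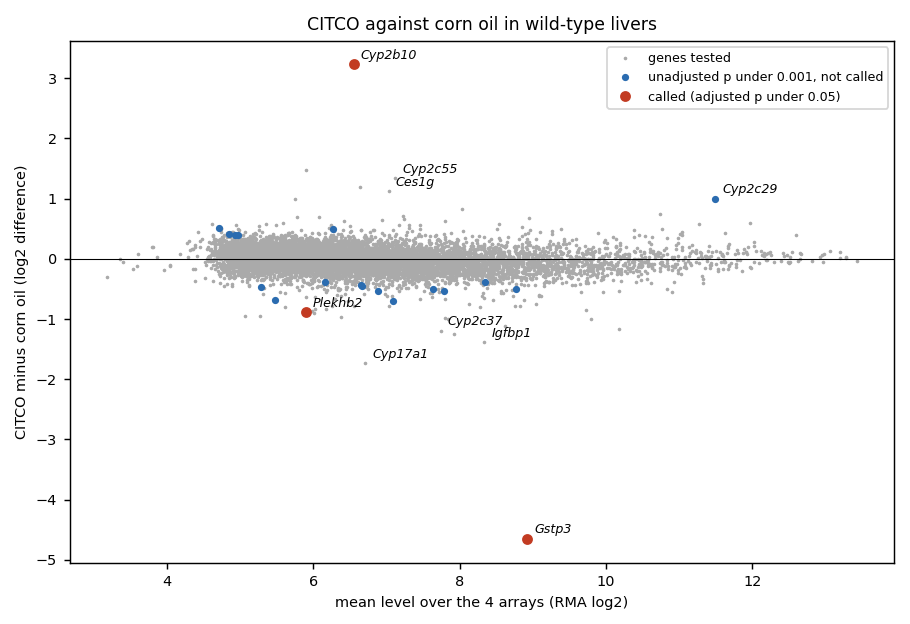
CITCO minus corn oil (vertical axis, log2) against the mean level over the 4 arrays (horizontal axis, log2) for 9164 genes. Red marks the 3 called genes and blue those with an unadjusted p under 0.001 that were not called; most genes lie near 0 (SD 0.197).

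Enzymes that conjugate drugs with glucuronate, sulfate or glutathione, together with esterases and reductases, were mixed. Of 53 tested members, 0 were called by limma, 3 had an unadjusted p under 0.05 with a higher mean and 0 with a lower one. The difference was above 0 for 34 of 53 (64.2%), against 48.8% of all genes. Both CITCO mice were above both corn oil mice for 12 and below both for 11; these 2 shares, 22.6% and 20.8%, are near the 21.4% and 24.2% of all genes. Ugt2b5 and Ugt2b34, glucuronosyltransferases, read 9.96 and 9.86 against 10.31 and 10.25, and 10.44 and 10.23 against 10.74 and 10.70. Ces1g, a carboxylesterase, read 5.64 and 7.30 against 7.41 and 7.77. Gstm3, a mu-class transferase, was 8.72 and 8.71 on corn oil and 8.75 and 9.54 on CITCO, so CITCO mouse 2 stood well above the vehicle and mouse 1 barely. A second Gstm3 probe set read 6.91 and 6.57 against 6.25 and 6.99, and the difference of 0.43 was 0.152 with the mean of probe sets and ran from 0.032 to 0.822 without single arrays. Among 17 transporters, Abcc3, an exporter of conjugates, read 9.11 and 8.64 against 9.18 and 9.47 (difference 0.45, adjusted p = 0.553).

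Cholesterol synthesis genes were lower on CITCO as a group, with no member called. Of 20 tested, 19 had a difference below 0, against 51.2% of all genes, and 16 were lower in both CITCO mice than in both corn oil mice, against 24.2%. Their median difference was -0.59. Hsd17b7, Srebf2 and Mvd had an unadjusted p under 0.05, and Ggps1 was the only member above 0. Mvd, mevalonate diphosphate decarboxylase, was 6.86 and 6.42 on corn oil and 6.03 and 5.68 on CITCO. Fdps, farnesyl diphosphate synthase, was 10.88 and 9.70 against 9.51 and 9.07. Srebf2, the transcription factor that drives the pathway, was 8.13 and 8.07 against 7.83 and 7.79. Corn oil mouse 1 was the high one: after centring each gene on the 4 arrays the list's median was 0.55 in corn oil mouse 1, -0.010 in corn oil mouse 2, and -0.17 and -0.40 in the CITCO mice. Without corn oil replicate 1 the median difference was -0.26.

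The other ligands gave the list a similar place: against the same, shared corn oil mice its median was -0.511 on phenobarbital and -0.367 on TCPOBOP, and CITCO minus phenobarbital and CITCO minus TCPOBOP had medians of -0.001 and -0.076, with no member called. On CITCO against their own corn oil mice, the list's median was -0.48 in knockout mice and -0.12 in human CAR mice. The difference between the wild-type and knockout effects had a median of -0.10 over the list, and no member passed its test. Hmgcs1, named after its values were seen, which makes the precursor of mevalonate, differed by -1.17 (SE 0.78) in wild type; the knockout value was -1.24 and that of human CAR mice -0.77.

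**Figure D4:**
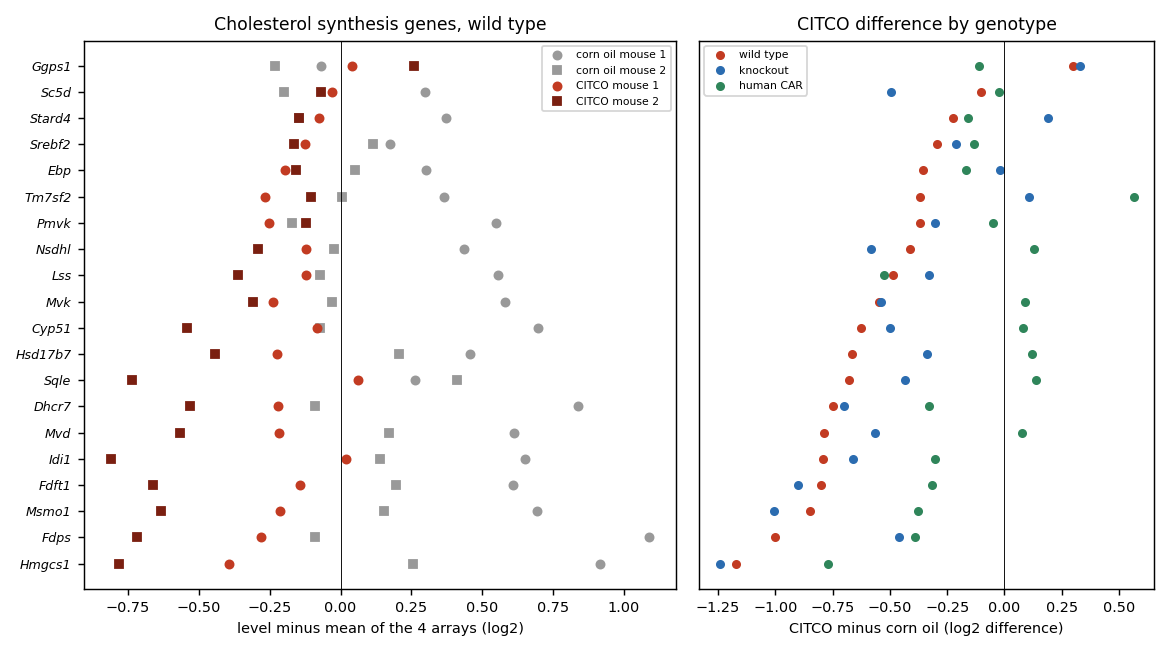
Left, levels of 20 cholesterol synthesis genes in each wild-type mouse minus the mean of the 4 arrays (horizontal axis, log2); right, CITCO minus corn oil (log2) in each genotype. Corn oil mouse 1 lies to the right for most genes, and the wild-type and knockout points lie below 0 for most genes.

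Chaperones and targets of endoplasmic reticulum stress leaned the same way. Of 23 tested, 0 were called by limma and 3 had an unadjusted p under 0.05, all lower. Both CITCO mice were below both corn oil mice for 12, against 24.2% of all genes. Creld2 read 8.38 and 8.19 against 7.82 and 6.79, Manf 8.67 and 8.92 against 8.46 and 7.76, and Dnajb11 9.06 and 8.89 against 8.65 and 8.26; all are proteins of the secretory pathway. CITCO mouse 2 was the lowest of the 4 for each. In knockout mice the list's median difference was 0.103, against -0.115 in wild type, and no member passed the test of that difference.

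Other metabolic groups stayed without a called gene. Of 16 genes of the methionine cycle, 15 were below 0, against 51.2% of all genes, with a median of -0.14. Both CITCO mice were below both corn oil mice for 6 (37.5%), against 24.2% of all genes. Dmgdh (9.43 and 9.20 against 8.99 and 9.04) and Sardh (10.60 and 10.56 against 10.23 and 10.34), which break down choline products, had an unadjusted p under 0.05. Medians were -0.14 for 22 lipogenesis genes, -0.085 for 29 of fatty acid oxidation, -0.11 for 16 of gluconeogenesis and fasting and 0.029 for 20 of bile acid synthesis and transport. Acacb, acetyl-CoA carboxylase 2, read 7.20 and 7.27 against 6.86 and 6.62, and Angptl4, an inhibitor of lipoprotein lipase, 8.92 and 9.38 against 8.15 and 8.58. Cyp7a1, which starts bile acid synthesis, and Pck1, of gluconeogenesis, differed by -0.15 and -0.06, and both changed sign when single arrays were left out. Cyp17a1, a steroid hydroxylase, was 6.87 and 8.29 on corn oil and 5.47 and 6.22 on CITCO (difference -1.74, SE 0.53, adjusted p = 0.494).

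Proliferation genes, which strong CAR ligands raise in mouse liver, gave a median of 0.025 over 28 tested members of S phase and mitosis. Ccnb2, Rrm2 and Foxm1 were higher and Mcm3 and Ccne1 lower at an unadjusted p under 0.05, with no call. Of the 4 arrays, Ccnb2 was under the dim limit on all 4, Rrm2 on 3 and Mcm3 on 1. The other probe sets differed by -0.044 to 0.07 for Rrm2 and by -0.084 to 0.011 for Mcm3. Gadd45b, a stress-response gene induced by TCPOBOP, differed by 0.06 (SE 0.28).

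**Figure D5:**
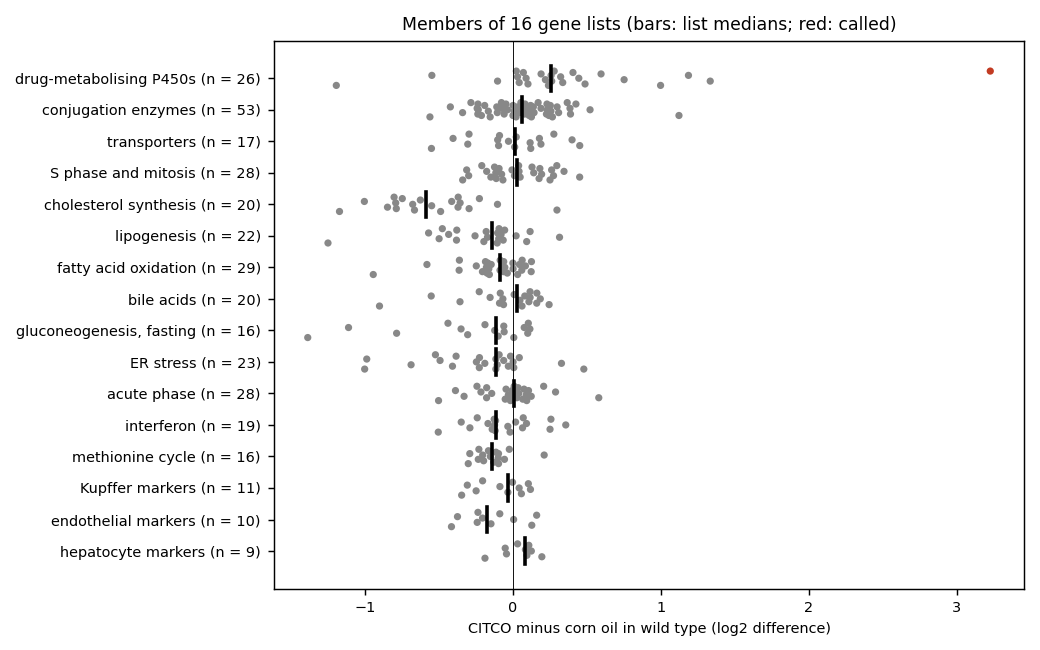
Difference CITCO minus corn oil in wild type (horizontal axis, log2) for each tested member of 16 gene lists, with list medians as bars and called genes in red. The P450 list has its median at 0.26 and the cholesterol synthesis list at -0.59; the other medians lie closer to 0.

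Markers of other liver cells were read alongside, since in whole liver fewer cells of a type and less RNA per cell cannot be told apart. Mean levels over 11 Kupffer cell markers were 7.96 and 7.53 in the corn oil mice and 7.81 and 7.52 in the CITCO mice, and over 10 endothelial markers 6.698 and 6.694 against 6.599 and 6.511. Endothelial genes were below both corn oil mice in both CITCO mice for 6 of 10, against 24.2% of all genes. Pecam1 was among them (5.18 and 4.89 against 4.73 and 4.51), but was under the dim limit except in corn oil mouse 1. Neutrophil markers averaged 5.43 and 5.35 against 5.72 and 5.51, with Mpo at 4.86 and 4.59 against 5.17 and 5.26. Both corn oil values of Mpo were under the dim limit. Over 9 stellate markers the means were 6.872 and 6.960 against 7.075 and 7.092. Of the 9 differences 7 were above 0, against 48.8% of all genes. For 4 both CITCO mice were above both corn oil mice, against 21.4% of all genes. Among these was Col3a1 (6.76 and 7.07 against 7.77 and 7.39), of which a second, dim probe set read 2.96 and 2.92 against 3.05 and 3.10. Hepatocyte markers averaged 12.14 and 12.34 against 12.29 and 12.27. No marker of these lists was called, and the part of other cells in the gene groups above was not tested.

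Whether the CITCO response needed mouse CAR was asked by setting the wild-type effect against the knockout effect. For Cyp2b10 the knockout mice had 5.42 and 4.81 on corn oil and 4.45 and 4.82 on CITCO, so neither CITCO mouse was above both vehicle mice. The knockout effect was -0.481, and every knockout value but 5.42 was under the dim limit (4.93 to 5.08). The effect was larger in wild type by 3.71 (SE 0.54, adjusted p = 0.0287), which includes this knockout fall. This call held in 3 of 8 fits that each left out 1 array: it was lost without wild-type corn oil replicate 1 or any 1 of the 4 knockout arrays (adjusted p = 0.059 to 0.279), with differences of 2.9 to 4.518 over the 8. It was also lost with limma's trend and robust options (adjusted p = 0.0557) and with only the groups compared in the fit (adjusted p = 0.104). Cyp2c29 fell short of the threshold: it was 8.13 and 7.83 on corn oil and 8.35 and 8.16 on CITCO in knockout mice, and the effects differed by 0.72 (SE 0.26, adjusted p = 0.826). For Gstp3 the knockout values of 6.46 and 6.42 and of 6.41 and 6.38 left an effect of -0.045, and the difference of -4.60 had an adjusted p of 0.202.

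In all, 2 of 9164 genes (0.0218%) passed that test of a difference between genotypes. The other was Parp16, an ADP-ribosyltransferase of the endoplasmic reticulum, with a difference of -1.53 (SE 0.23, adjusted p = 0.0287). It was 4.60 and 4.33 on corn oil and 4.26 and 4.33 on CITCO in wild type, and 4.27 and 4.39 against 5.97 and 5.43 in knockout mice. The knockout CITCO mice carried this result, since the 22 other arrays stayed between 3.99 and 5.03, and 21 of all 24 were under the dim limit. Without the knockout CITCO arrays Parp16 would not have passed the dim filter, so the arrays that let it be tested also made the call. The Parp16 call held in 2 of 8 fits without 1 array, those without wild-type corn oil replicate 2 or knockout CITCO replicate 2; in the others the adjusted p was 0.0973 to 0.279. With only the groups compared it was 0.081.

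Against human CAR mice, 0 of 9164 genes (0.0%) differed in their CITCO effect by limma; 862 had an unadjusted p under 0.05, and the smallest adjusted p was 0.173. Cyp2b10 in human CAR mice was 8.22 and 8.82 on corn oil and 11.37 and 11.68 on CITCO. The rise of 3.01 (adjusted p = 0.0029) there and that of 3.23 in wild type differed by 0.22 (SE 0.54), but started from different levels: the CITCO level in wild type overlapped the vehicle level in human CAR mice. Cyp2c29 rose by 1.57 in human CAR mice (10.74 and 10.67 against 12.26 and 12.30, adjusted p = 0.002), and the wild-type effect minus that one was -0.58 (SE 0.26, adjusted p = 0.519). Cyp2c55 was 6.08 and 5.91 against 8.50 and 8.70 there, so both CITCO mice stood well above the vehicle there, against 1 of 2 in wild type; the effects differed by -1.27 (SE 0.62, adjusted p = 0.554).

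A further list came from arrays outside this comparison. On CITCO, 12 genes (0.131%) were higher in human CAR than in knockout mice by over 1 in log2 units at an adjusted p under 0.05, and 1 (0.0109%), Parp16, was lower. By this rule differences already present on corn oil count too, as for Cyp2b10. In wild type 11 of the 12 were higher on CITCO than on corn oil, against 48.8% of all genes, with a median of 0.44. Both CITCO mice exceeded both corn oil mice for 5 (Cyp2b10, Cyp2c29, Cyp2c55, Abcc3 and 4931406C07Rik), against 21.4% of all genes. Cyp2c55 and Abcc3 did so by little in CITCO mouse 1 (6.66 and 9.18, against at most 6.54 and 9.11 on corn oil). Alas2 was the 1 below 0, and Elovl3, a fatty acid elongase, read 9.44 and 9.18 against 9.74 and 8.92.

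The corresponding list for mouse CAR was longer and shared members with that one, among them Cyp2b10, Cyp2c29 and Cyp2c55. On TCPOBOP, 107 genes (1.17%) were higher in wild type than in knockout mice by the same rule, and 86 (0.938%) were lower. Of the 107, 56 were above 0 on CITCO, with a median of 0.022; both CITCO mice exceeded both corn oil mice for 26 and lay below both for 23, shares close to those of all genes. Of the 86, 38 were above 0, with a median of -0.043. Prom1 and Sult1e1, both in the list, were under the dim limit on all 4 arrays, and Cyp26a1, also in it, was 7.46 and 6.56 on corn oil and 6.75 and 6.47 on CITCO.

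A direct comparison of CITCO with TCPOBOP in wild type used no corn oil array. Doses and schedules differed, so it compares these 2 regimens. On CITCO, 153 genes (1.67%) were higher and 275 (3.0%) lower than on TCPOBOP. Cyp2b10 was 12.24 and 12.48 on TCPOBOP, above both CITCO mice, and CITCO minus TCPOBOP was -4.19 (SE 0.38, adjusted p = 4.21e-06). Cyp2c55 was 11.98 and 11.94, with a difference of -4.18. Prom1, a stem cell surface protein, was 8.13 and 7.81 on TCPOBOP and 3.83 and 4.14 on CITCO. Gstm3 and Ccl9, a chemokine, were lower on CITCO, with differences of -3.67 and -3.09. Cyp2c29, at 12.44 and 12.56 on TCPOBOP, differed by -0.50 (SE 0.19, adjusted p = 0.16) and Cyp3a11 by -0.27 (SE 0.15, adjusted p = 0.435); neither was called.

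Several genes were higher on CITCO than on TCPOBOP. Ppp1r3c, a glycogen-targeting subunit of protein phosphatase 1, was 7.69 and 8.04 on CITCO and 5.51 and 5.45 on TCPOBOP, next to 7.05 and 8.18 on corn oil. The retinol-handling Rdh9 (6.55 and 6.99 against 4.48 and 4.66) and Retsat (9.40 and 9.27 against 7.55 and 7.34) were called too; their corn oil levels were 6.57 and 7.23 for Rdh9 and 9.57 and 9.54 for Retsat. By list, 21 of 28 S phase and mitosis genes were called lower on CITCO than on TCPOBOP, and 13 of 29 fatty acid oxidation genes higher. Of 26 P450s and partners, 6 were called lower and 1 higher. Over all genes the shares were 3.0% lower and 1.67% higher. Without CITCO replicate 1 or 2 or TCPOBOP replicate 1 or 2 the genes called numbered 167, 201, 234 and 195, and Ppp1r3c kept its call in 2 of those 4 fits (adjusted p up to 0.0786), Rdh9 and Retsat in all 4.

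Against phenobarbital, 9 genes (0.0982%) were higher and 49 (0.535%) lower on CITCO. Gstp3 differed by -4.88 (SE 0.61, adjusted p = 0.000432), Cyp2b10 by -3.81, Cyp2c55 by -3.60 and Cyp26a1, a retinoic acid hydroxylase, by -3.03. Phenobarbital mice had Cyp2b10 at 11.88 and 12.06 and Cyp2c29 at 12.11 and 12.40; for Cyp2c29 CITCO minus phenobarbital was -0.26 (SE 0.19, adjusted p = 0.854). On the higher side Bhmt, a methionine-cycle enzyme, was 11.90 and 11.63 on CITCO and 10.89 and 10.63 on phenobarbital, and C9, a complement protein, 11.26 and 11.21 against 10.55 and 10.16. By list, 11 of 53 conjugation genes and 2 of 26 P450s and partners were called lower on CITCO, against 0.535% of all genes. Of these calls, C9 held in 1 of the 4 fits without 1 array (only without phenobarbital replicate 1; adjusted p up to 0.404), Bhmt in 2 (lost without phenobarbital replicate 2 or CITCO replicate 1; up to 0.155) and Cyp26a1 in 2 (lost without phenobarbital replicate 2 or CITCO replicate 2; up to 0.0745). Gstp3, Cyp2b10 and Cyp2c55 held in all 4. The 2 comparisons share the CITCO arrays, and the vehicle comparisons of the 3 ligands share the corn oil arrays.

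Side by side, the differences from those shared corn oil mice were 3.23 on CITCO, 7.03 on phenobarbital and 7.42 on TCPOBOP for Cyp2b10. They were 0.999, 1.26 and 1.503 for Cyp2c29, and 1.33, 4.93 and 5.51 for Cyp2c55. For Cyp3a11 they were 0.60, 0.83 and 0.87, and for Gstm3 0.43, 3.30 and 4.10. The tests of CITCO against each other ligand are those given above.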

How the data were processed

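Livers of 24 mice were measured with 1 Affymetrix array each. The deposited table holds log2 values that the authors made with RMA in R 2.15.0, per the submitters' processing notes: background-corrected, quantile-normalised and summarised over the probes of 22690 probe sets. RMA puts all arrays on 1 distribution, so a shift shared by all genes cannot be seen. Array medians were 5.41 to 5.51 and 0 values were missing; no further normalisation was applied. No source used here gives hybridisation dates or litters.

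Of the probe sets other than 64 controls, 20380 had 1 gene symbol in the platform annotation, 691 had several and 1555 were not listed there. Each of 12393 genes took its probe set with the highest mean over all arrays; 9164 lay above their array's 40th percentile on at least 2 arrays and were tested. All 24 arrays entered 1 linear model with a mean for each of the 12 groups (12 residual degrees of freedom) and no covariate, in limma 3.58.1 (R 4.3.3), and p-values were adjusted by Benjamini-Hochberg over all 9164 genes. Only 2 mice a group limit the precision. Labels say that each mouse gave 1 array, so the spread is between animals. Replicate numbers were not taken to pair the mice. Named whatever their p were Nr1i3, Cyp2b10, Cyp2c29, Cyp2c55, Cyp3a11, Cyp1a2, Gstm3, Gstp3, Plekhb2, Cyp7a1, Pck1 and Gadd45b. Besides them, called genes, the 12 with the smallest p in each direction, up to 6 members of each list by p and, in the other comparisons, the 6 largest called differences each way could be named. The members, lists and named genes were chosen with earlier results of these data known. Lists were described by counts and medians, with no test. Promoter windows came from RefSeq tables of GRCm38.p6. Figures used Python 3.11.15 and matplotlib 3.10.9. The settings tried besides were cyclic loess, no dim filter or one at the 60th percentile, averaged probe sets, limma's trend and robust options together, weights per array, replicate number as a blocking factor, a 2-fold minimum, fits on only the compared groups or without the 2 arrays that stand apart, and leaving out single arrays.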

Additional observations from a re-analysis of the deposited data

Results flagged for a closer look

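The CITCO effect on Cyp2b10 differed between genotypes. It was larger in wild type than in knockout mice by 3.71 (SE 0.54, adjusted p = 0.0287 in limma's test of the difference), which includes a knockout effect of -0.481. Both wild-type CITCO mice were above both vehicle mice, and neither knockout CITCO mouse was above both of its own vehicle mice. The call held in 3 of 8 fits that each left out 1 array (adjusted p up to 0.279). The CITCO effect on Parp16 also differed, by -1.53 (SE 0.23, adjusted p = 0.0287), and held in 2 of 8 such fits (adjusted p up to 0.279). Both knockout CITCO mice (5.97 and 5.43) were higher than all other arrays for this gene, the wild-type mice were not, and 21 of 24 arrays were under the dim limit. Without these knockout CITCO arrays Parp16 would not have passed the dim filter, so the test of it was not independent of them.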

How the results depend on the processing

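With 2 mice a group, single arrays set the counts. Leaving out each array gave 0 to 3 called genes for CITCO against corn oil in wild type (0 without corn oil replicate 1), 0 to 2 for the difference from knockout, 0 to 1 for the difference from human CAR, 167 to 234 against TCPOBOP and 17 to 40 against phenobarbital (17 without phenobarbital replicate 2). Array weights gave 5 genes for the difference from knockout, 850 against TCPOBOP and 363 against phenobarbital, and leaving out 2 arrays that stand apart gave 7, 696 and 125. For the difference from knockout, the 60th percentile filter and a variance trend with a robust prior each gave 1 gene. A 2-fold limit gave 128 against TCPOBOP and 33 against phenobarbital. The mean of probe sets gave 5 genes for CITCO against corn oil, adding Acsf3 and Malat1. With only the groups compared in the fit, 4 genes differed from knockout, none of them Cyp2b10 or Parp16, 1 (Gstp3) differed from human CAR, and 222 differed from phenobarbital; for CITCO against corn oil 2 were called, Gstp3 and Asic5, and Cyp2b10 was not. Gstp3 was called there under all 10 settings other than leaving out an array, Cyp2b10 under 9 and Plekhb2 under 7 (lost with the replicate block, the 2-fold limit and only the groups compared). With the replicate block, 2 genes were called, Cyp2b10 (adjusted p = 0.000226) and Gstp3 (adjusted p = 0.00771); deviations of same-numbered mice correlated at 0.006 between these groups and at -0.448 to 0.424 over all pairs of groups, and the numbers were not taken to pair mice. No gene in the report that was called reversed. Uncalled values did when single arrays were left out: CITCO minus corn oil ran from -0.039 to 0.162 for Gadd45b, from -0.539 to 0.232 for Cyp7a1 and from -0.245 to 0.123 for Pck1. The difference from knockout for Cyp2c55 ran from -0.043 (without CITCO replicate 2) to 2.194 (without CITCO replicate 1), and the difference from human CAR for Cyp2b10 from -0.587 to 1.031 for the same arrays. With the mean of probe sets Gadd45b was -0.044, and the difference from human CAR for Cyp2b10 was -0.122. The cause of these shifts was not tested beyond the arrays named.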

Other observations

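Some genes outside the lists' main results were split between mice of 1 group in wild type. Among genes of day-night rhythm and stress, Lpin1, a phosphatidate phosphatase, was 8.08 and 9.01 on corn oil and 6.41 and 8.18 on CITCO, and Tsc22d3, a glucocorticoid-induced gene, was 6.46 and 8.39 against 5.99 and 7.28. Igfbp1, which rises in fasting, was 7.74 and 10.31 on corn oil and 7.80 and 7.48 on CITCO, and Gadd45g was 5.36 and 7.90 against 5.89 and 6.05. Cyp4a14, a fatty acid hydroxylase, was 4.38 and 7.12 against 4.72 and 4.89. In the last 3 genes corn oil mouse 2 was the 1 high mouse. None of these 5 genes was called (adjusted p = 0.678 to 0.914), and they were picked out after their values were seen.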
